A study of Mus musculus with 37 samples.

Results

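The 10 genes described here encode factors that remove, translate or store maternal mRNA in the mouse oocyte. They were chosen by symbol, with earlier results of these data known. The set holds the deadenylase adaptor Btg4, the poly(A)-binding protein Pabpn1l and the AU-rich element binding protein Zfp36l2. It also holds the deadenylase catalytic subunits Cnot6l, Cnot6, Cnot7, Cnot8 and Pan2, and the storage factors Ybx2 and Zar1. All 10 were listed in each of 4 RNA-seq tables, among 25053 genes for ZH GV oocytes, 19033 for CabZ GV oocytes, 24305 for CabZ 2-cell embryos and 15855 for the Zscan4 injection experiment.

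A growing oocyte makes and stores the mRNA that it will need after transcription stops, and the stored messages are dismantled during meiotic maturation and in the early embryo. Removal starts with shortening of the poly(A) tail by the CCR4-NOT complex, in which CNOT6 or CNOT6L and CNOT7 or CNOT8 are the exchangeable catalytic subunits, and by the PAN2-PAN3 complex. BTG4 and PABPN1L bring CCR4-NOT to maternal mRNA, ZFP36L2 brings it to AU-rich messages, and YBX2 (MSY2) and ZAR1 bind dormant messages and stabilise them.

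The study examined oocytes from which a subunit of the Hira complex, a chaperone of the histone variant H3.3, had been removed. It also examined embryos derived from such oocytes. ZH KO oocytes lacked Hira and CabZ KO oocytes lacked Cabin1, through Zp3-Cre, which recombines floxed alleles in growing oocytes, so that the deletion is restricted to the female germline. The ZH Het and CabZ Het controls were littermates that also carried Zp3-Cre, with a single floxed allele, so they were heterozygous in the oocyte and not wild type. There were 4 libraries each of ZH Het GV, ZH KO GV, CabZ Het GV, CabZ KO GV, CabZ Het 2-cell and CabZ KO 2-cell, and the methods describe pooled GV (germinal vesicle, prophase-arrested) oocytes per library, whereas the labels describe individual cells. In the injection experiment, wild-type GV oocytes received RNA for Zscan4d or for GFP, were matured in vitro and were activated parthenogenetically, giving 3 libraries of 2-cell embryos labelled Zscan4 OE and 4 labelled GFP. Animal ages were not given for any of these groups, all of the C57BL/6 background. Whether the CabZ 2-cell embryos of these libraries were fertilised or parthenogenetic was not stated. For zygotes, females were mated with C57BL/6 males, so a fertilised CabZ KO embryo would carry a paternal Cabin1 allele. The label KO therefore describes the oocyte. ATAC-seq peak lists covered 3 CabZ Het and 3 CabZ KO libraries of GV oocytes.

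Values are given in FPKM, which divides the fragments of a gene by the length of its genomic span and by the size of the library. The reads behind them, recovered from the spacing of low values, came to between 5819315 and 21869858 per library on listed genes, and CabZ KO 2-cell libraries (5819315 to 6330243) were shallower than CabZ Het 2-cell libraries (7947412 to 8239524). Cabin1 had 10.5 to 18.8 CPM (reads per 1000000 reads on listed genes) in CabZ Het GV and 1.48 to 5.70 in CabZ KO GV libraries, and 27.1 to 53.8 against 7.56 to 21.4 in 2-cell embryos. Hira had at most 14 reads in any ZH library, too few to check the labels. Zscan4d was not higher in the libraries labelled Zscan4 OE (495 to 604 CPM) than in GFP libraries (507 to 1059). This measure, taken at the 2-cell stage, did not bear out the label. Reads of the near-identical Zscan4 copies can be assigned to the wrong copy. The paper reports raised Zscan4 after the injection by qRT-PCR, relative to uninjected oocytes, and by immunofluorescence and western blot, relative to the uninjected group. It also describes Zscan4 as specific to the 2-cell stage, which is the stage of these libraries. Oocyte markers (10 genes such as Zp3 and Gdf9) were detected in every group. The summed granulosa and cumulus cell markers reached at most 129 CPM in GV libraries and 70.8 in CabZ 2-cell libraries. In ZH oocytes, where 11 of the 12 were listed, that sum was 39.4 to 47.0 CPM in Het libraries and 83.9, 81.6, 33.7 and 63.0 in KO replicates 1 to 4, with Ptx3 at 0 in every Het library and Foxl2 and Has2 at 0 in every KO library.

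The upstream sequences of Btg4, Pabpn1l and Zar1 are shown because these oocyte genes had some of the highest levels of the set in GV oocytes and were lower together in ZH KO oocytes. They come from RefSeq promoter windows (GRCm38.p6), in which 8 of the 10 genes were matched, and each is cut so that it holds no exon annotated in GENCODE. The Btg4 stretch lies before a RefSeq start that is inside the GENCODE span of the gene (chr9:51060901-51119875). Capitals mark the E-box core CANNTG, which reads the same on both strands. Btg4 lies on the plus strand and Pabpn1l and Zar1 on the minus strand, and all are written 5′ to 3′ in the direction of transcription.
Btg4 (chr9:51115751-51116000): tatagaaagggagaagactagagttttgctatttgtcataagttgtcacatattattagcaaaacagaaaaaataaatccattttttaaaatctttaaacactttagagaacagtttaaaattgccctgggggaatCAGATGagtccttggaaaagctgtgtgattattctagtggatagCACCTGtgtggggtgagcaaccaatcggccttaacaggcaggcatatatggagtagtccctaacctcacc
Pabpn1l (chr8:122622740-122622985): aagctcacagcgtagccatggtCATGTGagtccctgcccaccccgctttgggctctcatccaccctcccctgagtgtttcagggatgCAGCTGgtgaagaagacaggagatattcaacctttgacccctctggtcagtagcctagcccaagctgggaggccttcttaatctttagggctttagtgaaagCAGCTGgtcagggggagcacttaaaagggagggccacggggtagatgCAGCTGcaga
Zar1 (chr5:72581255-72581334): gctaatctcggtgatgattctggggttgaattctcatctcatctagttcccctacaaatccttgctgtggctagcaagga

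The Btg4 stretch of 250 bases held 2 CANNTG matches, the Pabpn1l stretch of 246 bases held 4, and the Zar1 stretch of 80 bases, which ends 170 bases before the RefSeq start, held 0, whereas the full 250 bases before the Zar1 start held 2. CANNTG was found in the 250 bases before the start in 66.2% of all 32851 RefSeq promoter windows and in 7 of the 14 windows of these genes. The TATA motif TATAAA, searched on both strands, was found in 12.4% of all windows and in 0 of the 14. These counts describe letters in the windows and say nothing of whether a factor binds there.

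The genes spanned about 3 orders of magnitude in control oocytes. Levels between genes are compared here per kilobase of exon, as CPM divided by the kilobases of merged exons. In CabZ Het GV oocytes, Btg4 was highest at 1871 ± 163 (SD, n = 4), followed by Pabpn1l at 235 ± 42.3 and Zar1 at 206 ± 19.6, whose ranges overlapped. Cnot7 was at 149 ± 15.3 and Cnot8 at 57.8 ± 5.70. Cnot6l (20.3 ± 1.69) and Ybx2 (18.9 ± 2.07) overlapped, and Pan2 (3.83 ± 0.606), Cnot6 (2.27 ± 0.310) and Zfp36l2 (0.676 ± 0.214) were lowest. ZH Het GV oocytes had the same gene on top (Btg4, 1349 ± 99.9), followed by Zar1 (301 ± 93.1) and Pabpn1l (274 ± 119), again with overlapping ranges.

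CabZ Het 2-cell embryos had another order. Btg4 was still highest at 1250 ± 528 (SD, n = 4), but Pabpn1l was at 2.80 ± 1.33 and Zar1 at 2.98 ± 1.31, the lowest values of the set. Cnot6 was at 11.5 ± 2.46 and Cnot6l at 11.1 ± 3.51, and the libraries of these paralogues overlapped. Zfp36l2 was at 3.17 ± 1.47. The GV and 2-cell tables were normalised separately, so these levels stand side by side without a test.

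**Figure D1:**
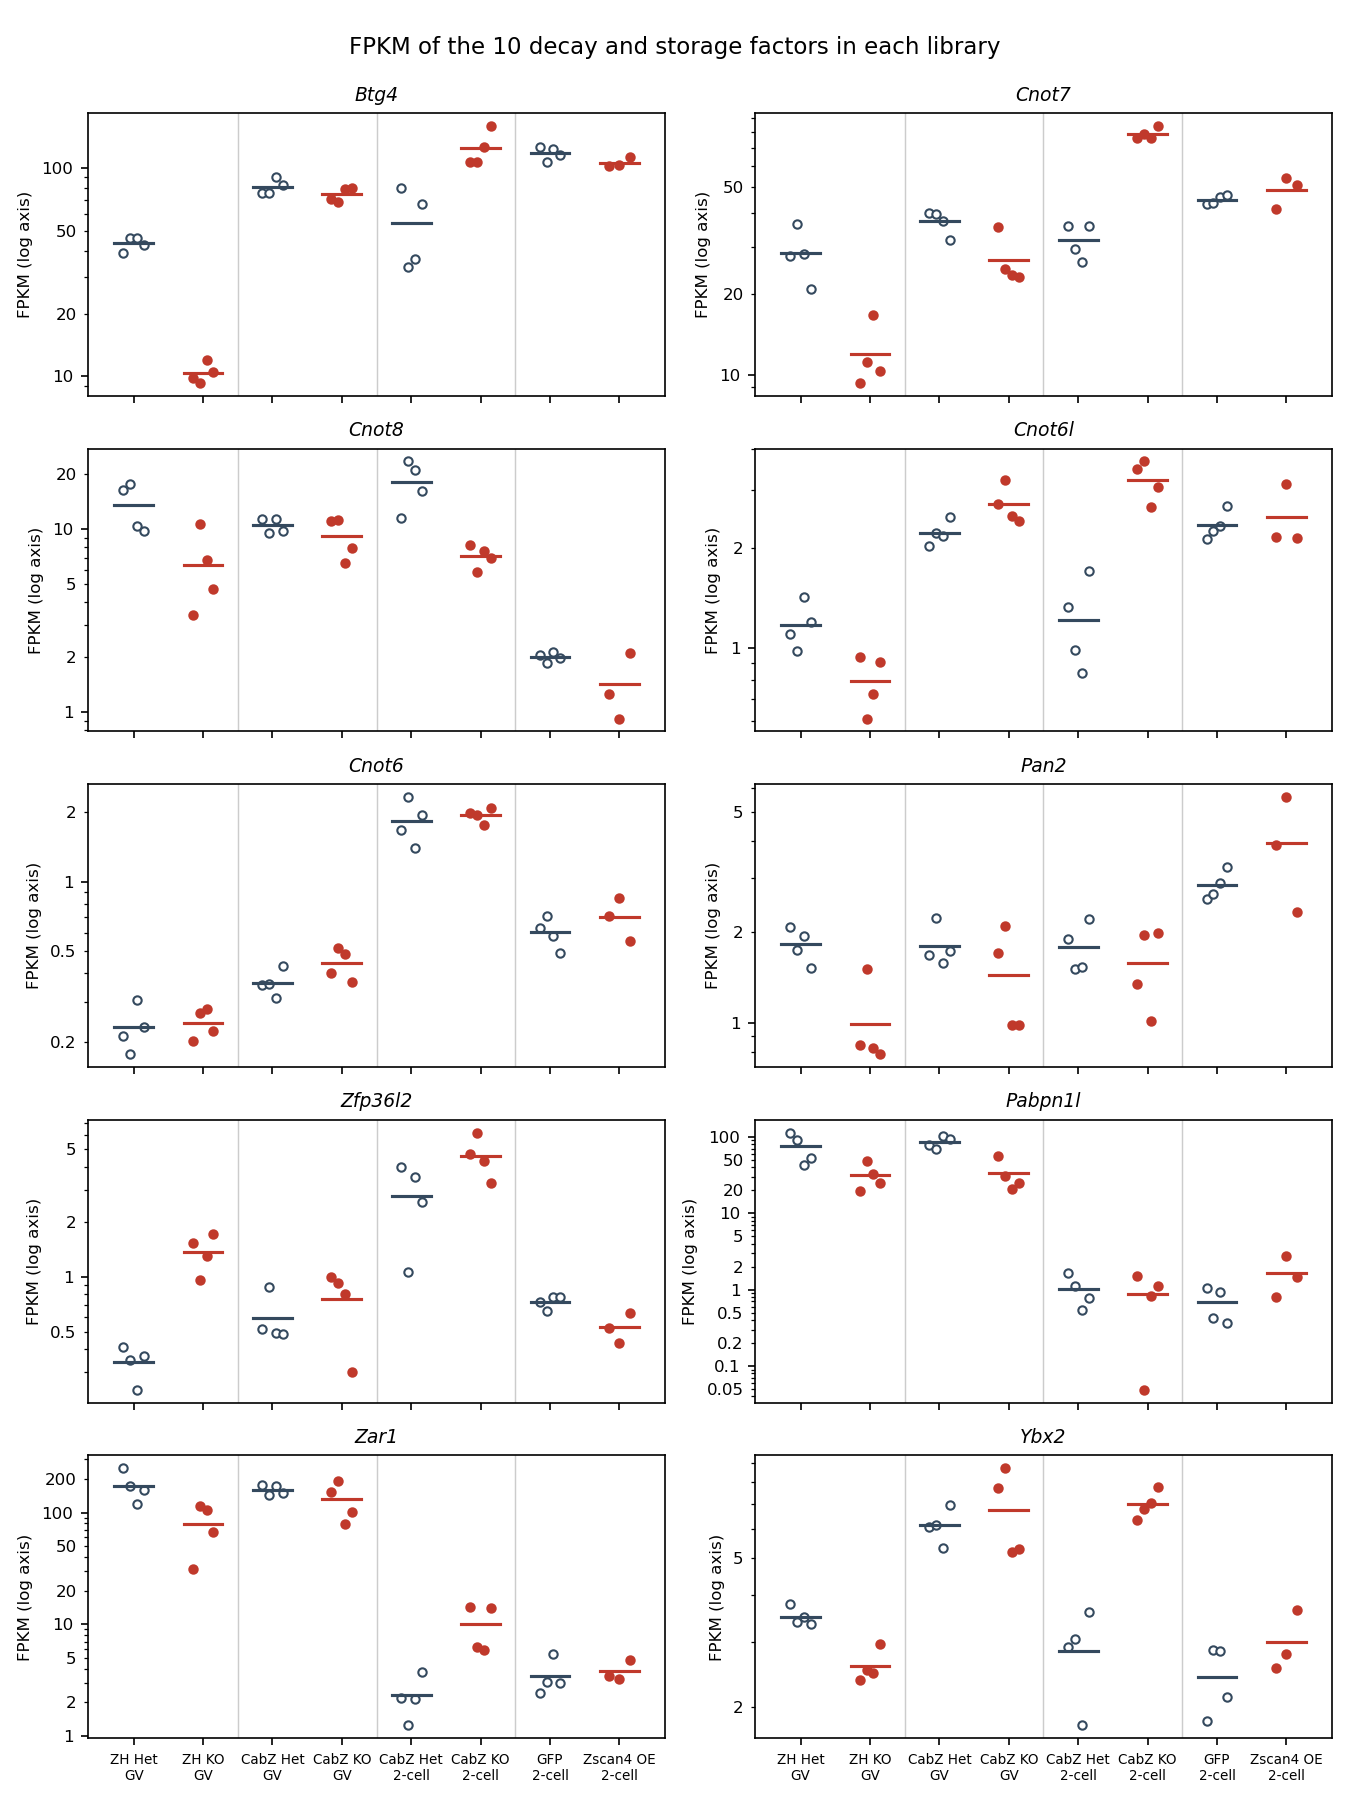
FPKM of each gene (log axis, scaled separately per gene) in every RNA-seq library of the 8 groups; points are libraries, open for Het or GFP and filled for KO or Zscan4 OE, and lines are group means. Btg4 sat between 9.28 and 11.9 in ZH KO oocytes against 39.3 to 46.3 in ZH Het oocytes, whereas in CabZ 2-cell embryos the KO libraries (107 to 159) were above all Het libraries (33.4 to 79.8).

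The ZH KO and ZH Het comparison asked whether oocytes grown without Hira carried altered levels of these mRNAs. Of the 10 genes, 7 had a mean of at least 1 FPKM and entered the fit over 5792 genes, and all 7 fell (adjusted P below 0.05, limma on log2(FPKM + 1), Benjamini-Hochberg over all tested genes). Over all tested genes, 26.3% passed as lower and 25.6% as higher. The median log2 fold change was -1.19 for the 7 genes and -0.04 for all tested genes. In pools of oocytes, fewer cells of a type and less RNA per cell cannot be told apart.

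Among the adaptors, Btg4 showed the change with the smallest adjusted P of the set. Its 4 ZH Het libraries had 39.3, 46.0, 46.3 and 42.8 FPKM, and its 4 ZH KO libraries had 9.77, 9.28, 11.9 and 10.5. The groups were far apart and each was tight. The means were 43.6 ± 3.29 and 10.4 ± 1.16 (SD, n = 4), a 4.20-fold difference, with a log2 fold change of -1.97 (standard error 0.12, limma adjusted P = 3.97e-06). Btg4 (chr9:51060901-51119875, GRCm38, plus strand) shares its span with Layn and other genes on the opposite strand, and the library kit does not mark strand.

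Pabpn1l, whose product binds poly(A) tails in oocytes, had 112.9, 89.5, 42.5 and 53.5 FPKM in ZH Het libraries and 19.8, 47.7, 32.8 and 24.6 in ZH KO libraries. ZH KO replicate 2 lay above ZH Het replicate 3, so the groups overlapped at that point. The log2 fold change was -1.20 (standard error 0.34, limma adjusted P = 0.0153). The gene lies at chr8:122619471-122622739 on the minus strand and shares its span with Gm20388 on the opposite strand and Mir6396 on the same strand.

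Of the nuclease genes in the fit, Cnot7, Cnot8 and Pan2 fell. Cnot7 had 27.7, 36.6, 28.3 and 20.9 FPKM in ZH Het libraries and 9.33, 11.2, 16.8 and 10.35 in ZH KO libraries. No ZH KO library reached the lowest Het value, and the log2 fold change was -1.19 (standard error 0.21, limma adjusted P = 0.00133). Its paralogue Cnot8 had 16.5, 17.6, 10.5 and 9.82 FPKM in ZH Het and 3.41, 10.7, 6.76 and 4.71 in ZH KO libraries. The single KO library at 10.7, replicate 2, lay above ZH Het replicates 3 and 4, and the log2 fold change was -1.04 (standard error 0.30, limma adjusted P = 0.0173). Pan2 was near 2 FPKM in ZH Het libraries (1.52 to 2.07), and its ZH KO libraries had 0.843, 1.5, 0.824 and 0.785. Replicate 2 was again the highest KO library, just under the Het range, and the log2 fold change was -0.51 (standard error 0.14, limma adjusted P = 0.0139).

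The storage factors moved in the same direction by unequal amounts. Zar1 had 248.5, 171, 119 and 159 FPKM in ZH Het libraries and 31.3, 115, 105 and 66.4 in ZH KO libraries. All KO libraries were below the lowest Het library, but by a small margin for KO replicate 2. The log2 fold change was -1.24 (standard error 0.39, limma adjusted P = 0.0226). Ybx2 had 3.78, 3.38, 3.5 and 3.34 FPKM in ZH Het and 2.36, 2.52, 2.48 and 2.95 in ZH KO libraries, which did not overlap. Its log2 fold change of -0.33 (standard error 0.11, limma adjusted P = 0.0284) was the smallest of the 7.

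Cnot6l, Cnot6 and Zfp36l2 were under the 1 FPKM mean in ZH oocytes and were compared with two-sided exact permutation tests, in which 4 against 4 libraries can give no P below 0.0286. Cnot6l, the CCR4-NOT nuclease that predominates over Cnot6 in oocytes, had 1.10, 0.978, 1.42 and 1.19 FPKM in ZH Het and 0.938, 0.610, 0.725 and 0.903 in ZH KO libraries. The groups were separate (1178 to 2276 against 903 to 1373 reads), with a difference of -0.28 on the log2(FPKM + 1) scale (exact permutation P = 0.0286). Cnot6 had 0.178 to 0.304 FPKM in ZH Het and 0.202 to 0.280 in ZH KO libraries (exact permutation P = 0.743). Zfp36l2, which recognises AU-rich messages, had 0.412, 0.349, 0.240 and 0.367 FPKM in ZH Het libraries (16 to 30 reads) and 1.53, 0.962, 1.30 and 1.72 in ZH KO libraries (62 to 96 reads). Every ZH KO library was above every ZH Het library (difference 0.82 on the log2(FPKM + 1) scale, exact permutation P = 0.0286). Zfp36l2 shares its span with AC132455.1 on the opposite strand, so that reads of the latter could be included.

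Some of these calls rested on few libraries. Without ZH Het replicate 1 or without ZH Het replicate 2, 4 of the 7 genes passed. Cnot8 and Zar1 each missed the threshold without ZH Het replicate 1, ZH Het replicate 2 or ZH KO replicate 4 (adjusted P of 0.0505 to 0.0539 for Cnot8 and 0.0525 to 0.0663 for Zar1), and Ybx2 missed it without ZH Het replicate 1, 2 or 3 or ZH KO replicate 1 (0.0574 to 0.0858). With no filter on low values, Pabpn1l, Cnot8 and Zar1 missed it (adjusted P of 0.0643, 0.0671 and 0.0856), and so did Ybx2 when libraries were scaled to the reads of the table (0.119). With a fold change above 2 required as well, 5 of the 7 passed, without Pan2 and Ybx2. Btg4 and Cnot7 passed under every alternative that gave a value, Pan2 under every one but that, and no alternative turned the direction of any of the 7. The summed oocyte markers were 20770 to 22720 CPM in ZH Het libraries and 8727, 18240, 22140 and 12280 in ZH KO replicates 1 to 4. Fshr, a granulosa cell marker, had 0.482 to 3.88 CPM in ZH Het and 6.41 to 17.9 in ZH KO libraries. The other granulosa and cumulus cell markers did not all follow Fshr. Foxl2 and Has2 were at 0 in every ZH KO library, and Cyp19a1, the highest, averaged 35.4 CPM in ZH Het and 38.3 in ZH KO libraries. The sum of these markers in ZH KO replicate 3 (33.7 CPM) was below every ZH Het library (39.4 to 47.0). The part of these markers in the result was not tested.

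**Figure D2:**
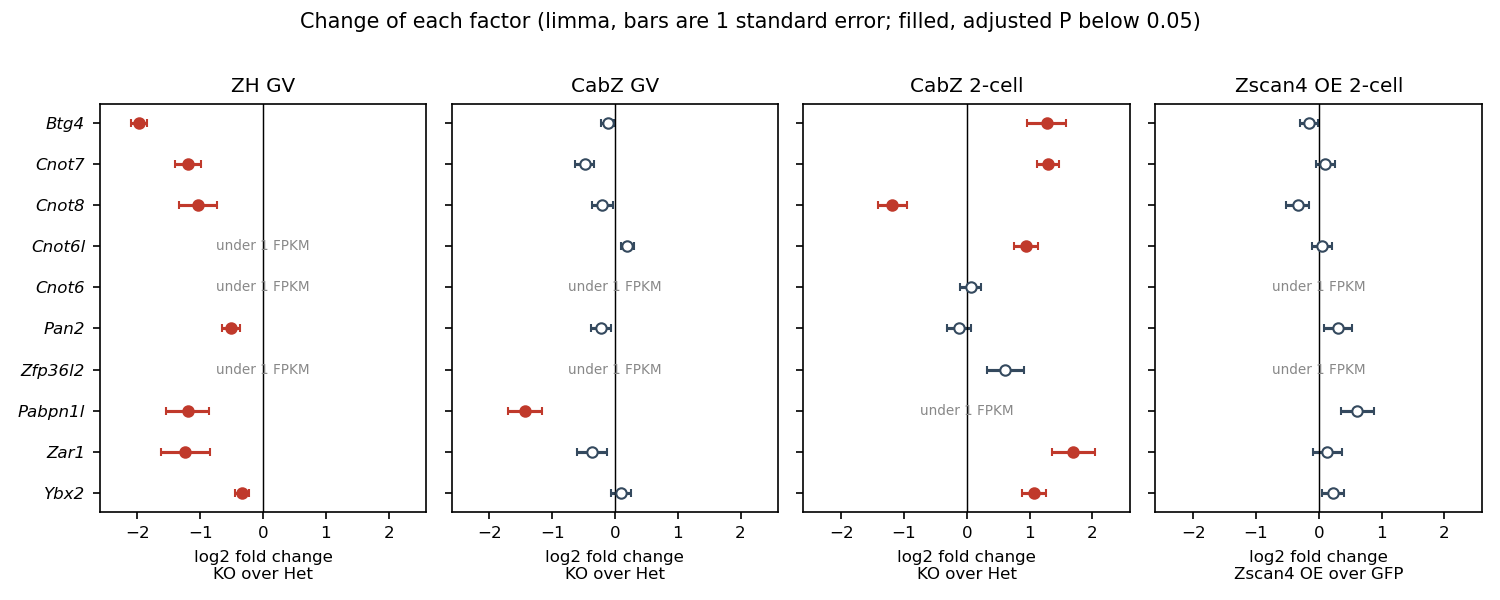
Log2 fold change of each gene (x axis, KO over Het or Zscan4 OE over GFP) in the 4 tables, from limma with 1 standard error as the bar; filled points had an adjusted P below 0.05. All 7 genes tested in ZH GV oocytes lay left of 0, Pabpn1l alone passed in CabZ GV oocytes, and 5 genes lay right and Cnot8 left of 0 among those that passed in CabZ 2-cell embryos.

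The same question was asked of oocytes grown without Cabin1. In CabZ GV oocytes, 8 of the 10 genes entered the fit over 6339 genes, and 1, Pabpn1l, passed, in the direction of a fall. Over all tested genes, 5.73% passed as lower and 8.2% as higher. Pabpn1l had 77.8, 68.8, 103 and 93.5 FPKM in CabZ Het libraries and 56.6, 30.5, 20.9 and 24.9 in CabZ KO libraries. No CabZ KO library reached the Het range, although KO replicate 1 came near it. The means were 85.8 ± 15.4 and 33.2 ± 16.1 (SD, n = 4), with a log2 fold change of -1.43 (standard error 0.27, limma adjusted P = 0.00716), and the gene passed under every alternative tried.

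Btg4, which had the smallest adjusted P in ZH oocytes, did not pass here. It had 75.7, 75.5, 90.4 and 82.7 FPKM in CabZ Het and 71.3, 68.8, 79.3 and 80.2 in CabZ KO libraries. The groups overlapped, and the log2 fold change was -0.11 (standard error 0.10, limma adjusted P = 0.548). The difference between the ZH and CabZ lines was not tested, because their tables were normalised separately.

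Cnot7 had 40.2, 39.8, 37.4 and 31.9 FPKM in CabZ Het and 35.6, 24.9, 23.5 and 23.2 in CabZ KO libraries. KO replicate 1 stood apart from the other KO libraries and inside the Het range. The log2 fold change of -0.48 (standard error 0.15) missed the threshold (limma adjusted P = 0.0619), and without CabZ KO replicate 1 it was -0.62 and passed (limma adjusted P = 0.00897). For Zar1, CabZ KO replicates 1 and 2 had 152 and 193 FPKM and replicates 3 and 4 had 79.7 and 102, against 145 to 175 in CabZ Het libraries (log2 fold change -0.36, standard error 0.24, limma adjusted P = 0.375). Cnot8, Pan2 and Ybx2 also had both higher KO values in replicates 1 and 2 and both lower ones in replicates 3 and 4, and their log2 fold changes were -0.20, -0.22 and 0.09 (limma adjusted P of 0.489, 0.417 and 0.766). Cnot6l had 2.04 to 2.48 FPKM in Het and 2.42 to 3.21 in KO libraries (log2 fold change 0.20, limma adjusted P = 0.254).

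Cnot6 and Zfp36l2 were under 1 FPKM in CabZ GV oocytes. Cnot6 had 0.311 to 0.431 FPKM in Het and 0.365 to 0.513 in KO libraries (exact permutation P = 0.143), and Zfp36l2 had 0.488 to 0.875 and 0.300 to 0.995 (exact permutation P = 0.429). Among the granulosa and cumulus cell markers, 7 of 12 were listed, and their sum was 42.2 to 57.6 CPM in CabZ Het and 83.7 to 129 in CabZ KO libraries. Fshr, the receptor for follicle-stimulating hormone, accounted for 0.562 to 1.23 of this in Het and 27.9 to 49.9 in KO libraries. The summed oocyte markers were 23350, 23740, 15280 and 17350 CPM in CabZ Het replicates 1 to 4. They were 17200, 17540, 12950 and 15160 in CabZ KO replicates 1 to 4, so replicates 1 and 2 were higher in both groups. The part of these markers in the Pabpn1l result was not tested.

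In 2-cell embryos the comparison concerned the stage at which maternal messages are being cleared. Of the 10 genes, 9 entered the fit over 7798 genes, 5 rose in CabZ KO embryos (Btg4, Cnot6l, Cnot7, Ybx2 and Zar1) and 1 fell (Cnot8). Over all tested genes, 25.2% passed as higher and 30.9% as lower. The median log2 fold change was 0.94 for the 9 genes and -0.11 for all tested genes.

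Zar1 had the largest log2 fold change of the set. Its CabZ Het libraries had 2.18, 1.24, 2.14 and 3.71 FPKM (44 to 136 reads) and its CabZ KO libraries had 14.4, 6.32, 5.86 and 14 (165 to 374 reads). All KO libraries were above all Het libraries, and the KO libraries fell into a higher and a lower pair. The log2 fold change was 1.70 (standard error 0.34, limma adjusted P = 0.00263). These values remained far under those of CabZ Het GV oocytes (145 to 175 FPKM in the separate table). Ybx2 had 2.90, 3.05, 1.79 and 3.59 FPKM in Het and 6.33, 6.79, 7.02 and 7.75 in KO libraries. The groups were separate, with a log2 fold change of 1.08 (standard error 0.19, limma adjusted P = 0.00153).

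Btg4 had 79.8, 33.4, 36.4 and 67.2 FPKM in CabZ Het and 107, 107, 126 and 159 in CabZ KO libraries. The Het libraries varied widely but stayed below every KO library. The log2 fold change was 1.27 (standard error 0.30, limma adjusted P = 0.00637). The other adaptor in the fit, Zfp36l2, had 3.98, 1.07, 3.53 and 2.57 FPKM in Het and 4.69, 6.16, 4.29 and 3.25 in KO libraries, which overlapped (log2 fold change 0.62, standard error 0.30, limma adjusted P = 0.103). Pabpn1l was under the filter with 14 to 43 reads in Het and 1 to 29 in KO libraries (exact permutation P = 0.657).

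The catalytic subunits split. Cnot7 had 35.7, 29.3, 26.4 and 35.7 FPKM in CabZ Het and 76.1, 78.6, 76.0 and 84.5 in CabZ KO libraries, with a wide gap between the groups (log2 fold change 1.29, standard error 0.17, limma adjusted P = 3.56e-04). Cnot8 had 11.6, 23.5, 21.1 and 16.2 FPKM in Het and 8.22, 5.86, 7.59 and 7.0 in KO libraries. It was lower in every KO library, with a log2 fold change of -1.19 (standard error 0.23, limma adjusted P = 0.00240). Cnot6l had 1.33, 0.983, 0.841 and 1.71 FPKM in Het and 3.49, 3.67, 2.68 and 3.06 in KO libraries, again without overlap (log2 fold change 0.94, standard error 0.18, limma adjusted P = 0.00229). Its paralogue Cnot6 had 1.40 to 2.33 FPKM in Het and 1.76 to 2.08 in KO libraries (log2 fold change 0.06, standard error 0.17, limma adjusted P = 0.766). Pan2 did not pass either (log2 fold change -0.13, standard error 0.19, limma adjusted P = 0.596).

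The 6 genes that passed in 2-cell embryos kept their direction and an adjusted P below 0.05 under every alternative that gave a value. This held when each library was left out in turn. On the log2(FPKM + 1) scale, 5 of them, without Cnot6l, also had a fold change above 2. That scale understates changes of low genes, and the ratio of the Cnot6l mean FPKM, KO over Het, was 2.66. The table values as deposited, less the table minimum, were brought by a common factor to the mean FPKM total of the libraries. On these values fewer genes reached a mean of 1, and 3 passed (Btg4, Cnot7 and Zar1). Setting the libraries to a common median gene moved the median log2 fold change of all tested genes from -0.11 to 0.13 and the share of higher calls from 44.9% to 55.9%, and the as-deposited values gave 0.39 and 70.8%. In ZH GV oocytes the common median gene moved the median log2 fold change from -0.04 to -0.19 and the share from 49.4% to 37.6%. Scaling to the reads of the table gave 0.08 and 60.3%. Oocyte markers as a group were also higher in CabZ KO 2-cell libraries, with sums of 3929 to 6384 CPM against 1766 to 3015 in Het libraries. Granulosa and cumulus cell markers, of which 9 of 12 were listed, summed to 52.7 to 70.8 against 8.66 to 17.2, and Fshr was at 0 in every Het library. The part of these markers, and of the lower depth of the KO libraries, in the result was not tested.

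The paralogue pairs can be compared within a library, where scaling between libraries plays no part. The Cnot7 to Cnot8 ratio, per kilobase of exon, was 0.912 to 2.25 in CabZ Het 2-cell libraries and 6.76 to 9.80 in CabZ KO 2-cell libraries. All KO values were above all Het values. In GV oocytes of the same line it was 2.38 to 3.06 in Het and 1.61 to 2.61 in KO libraries, and in the ZH line 1.23 to 1.97 and 0.763 to 2.00, so that these groups overlapped. In the injection experiment it was 15.5 to 17.2 in GFP 2-cell libraries, above the CabZ KO 2-cell values, and 24.0, 42.7 and 17.5 in the libraries labelled Zscan4 OE, which did not overlap with GFP. The Cnot6l to Cnot6 ratio was 0.616 to 1.28 in CabZ Het 2-cell and 2.14 to 2.75 in CabZ KO 2-cell libraries. In GV oocytes it was higher than in the CabZ 2-cell libraries throughout, at 8.35 to 10.2 in CabZ Het, 7.55 to 9.90 in CabZ KO, 6.83 to 8.04 in ZH Het and 3.33 to 6.77 in ZH KO libraries. The ZH KO values lay below all ZH Het values. In the injection experiment it was 4.64 to 7.99 in GFP libraries and 4.46 to 5.73 in the libraries labelled Zscan4 OE, which overlapped. These ratios use the same reads as the comparisons above and are given as a description. Cnot7 shares its span with Zdhhc2 and Vps37a on the opposite strand, and Cnot6 with pseudogenes, so that reads of these could be included.

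**Figure D3:**
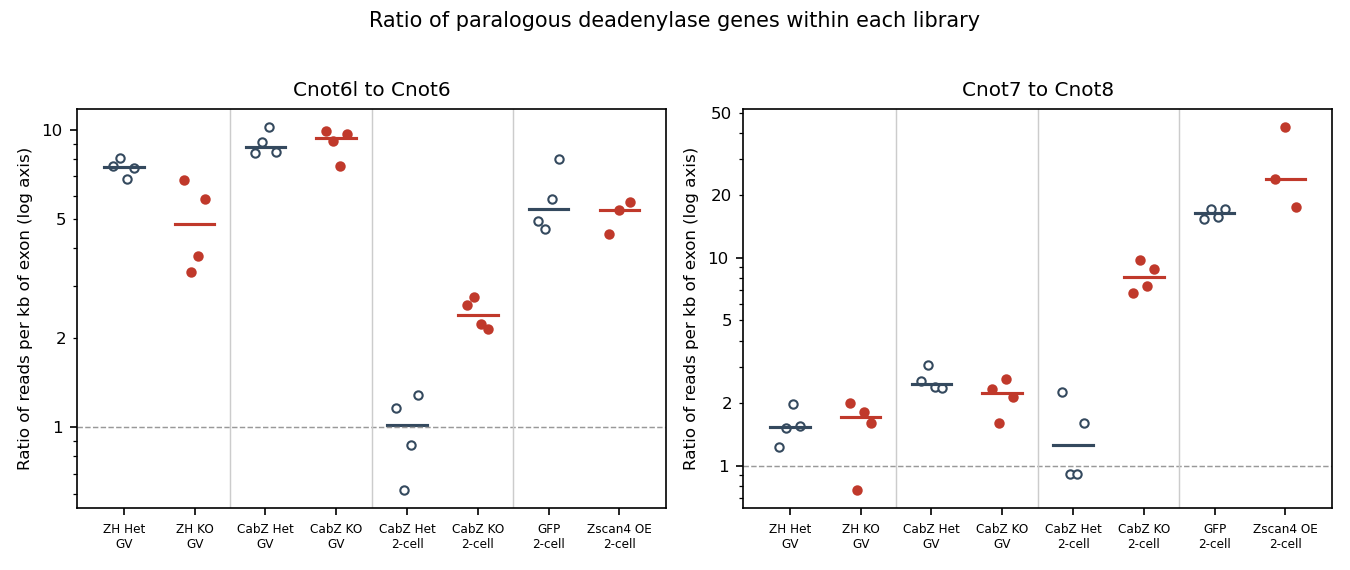
Ratio of Cnot6l to Cnot6 (left) and of Cnot7 to Cnot8 (right) in reads per kilobase of exon (log axis) in every library; points are libraries, lines are group medians and the dashed line marks equal levels. CabZ KO 2-cell libraries sat at 6.76 to 9.80 for Cnot7 to Cnot8, above the Het libraries at 0.912 to 2.25.

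The injection experiment compared 2-cell embryos labelled Zscan4 OE with embryos that had received GFP RNA. Of the 10 genes, 8 entered the fit over 4293 genes and 0 passed (1 of the 8, Pabpn1l, had an unadjusted P below 0.05). Over all tested genes, 0.0932% passed as higher and 1.7% as lower, and 850 had an unadjusted P below 0.05. Btg4 had 126, 107, 124 and 115.5 FPKM in GFP libraries and 102, 103 and 113 in the libraries labelled Zscan4 OE (log2 fold change -0.15, standard error 0.14, limma adjusted P = 0.548). Cnot7 had 43.4 to 46.7 in GFP and 41.3 to 53.9 in Zscan4 OE libraries (log2 fold change 0.11, standard error 0.15, limma adjusted P = 0.713). Pabpn1l had 0.370 to 1.05 FPKM in GFP and 0.795 to 2.72 in Zscan4 OE libraries, which overlapped (log2 fold change 0.61, standard error 0.27, limma adjusted P = 0.245). Cnot8 was at 1.86 to 2.13 FPKM in GFP libraries and at 1.26, 0.923 and 2.12 in Zscan4 OE libraries (log2 fold change -0.33, standard error 0.18, limma adjusted P = 0.335).

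Cnot6l, Pan2, Ybx2 and Zar1 had log2 fold changes of 0.05, 0.31, 0.23 and 0.14 in this experiment, with limma adjusted P of 0.887, 0.462, 0.475 and 0.770. Zfp36l2, under the filter, had 0.651 to 0.780 FPKM in GFP and 0.433 to 0.633 in Zscan4 OE libraries, which did not overlap. With 4 against 3 libraries the two-sided exact permutation test can give no P below 0.0571, which was the value for Zfp36l2. Cnot6 had an exact permutation P of 0.343.

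Other genes of these pathways were followed in 6 lists, of which the counts below name only genes outside the set of 10. The lists, too, were chosen with earlier results of these data known. In ZH GV oocytes, 51 of 104 listed genes entered the fit, 7 rose and 21 fell, where 25.6% of all tested genes passed as higher and 26.3% as lower. Of 11 tested genes of mRNA storage and translational masking, 7 fell and 1 rose. Igf2bp2, an mRNA-binding protein, fell from 2.05 ± 0.139 to 0.492 ± 0.129 FPKM (SD, n = 4), and Stau1 and Lsm14b, which bind double-stranded and masked mRNA, had log2 fold changes of -1.12 and -1.02 (limma adjusted P of 9.57e-05, 2.34e-04 and 6.88e-04 for the 3 genes). Of 8 genes of poly(A) binding and polyadenylation, 6 fell and 0 rose, among them the poly(A) polymerases Fam46c (log2 fold change -1.96, limma adjusted P = 5.43e-04) and Papolg (-1.21, limma adjusted P = 1.90e-04).

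Of 7 further deadenylase genes, 3 fell in ZH KO oocytes, with Noct at -1.33 and the CCR4-NOT subunit Cnot3 at -1.14 (limma adjusted P of 1.55e-04 and 1.58e-04). Adaptors were divided, 2 higher and 2 lower of 8: Btg2, a relative of Btg4, rose by 1.16 (limma adjusted P = 3.59e-04) and Nanos2 fell by 1.03 on the log2 scale (limma adjusted P = 0.0485). The decapping activator Dcp1a fell by 1.35 and the LSM ring subunit Lsm1 rose by 1.24 on the log2 scale (limma adjusted P of 1.42e-04 and 0.00108), out of 4 decapping genes. The exosome and uridylation list had 3 higher and 2 lower of 13, and 2 higher and 5 lower with a common median gene. No terminal uridylation enzyme was among these 13 tested genes. None of the 11 genes named for ZH oocytes changed direction when libraries were rescaled, and 1 of the 11 missed the threshold when they were scaled to the reads of the table. Over all 6 lists, 6 of 51 rose and 27 fell with a common median gene, where 1195 of all 5792 tested genes passed as higher and 1987 as lower. When scaled to the reads of the table, 7 of 54 rose and 16 fell, where 2093 of all 6776 tested genes passed as higher and 1379 as lower.

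In CabZ GV oocytes, 4 of the 51 tested list genes rose and 1 fell, near or below the 8.2% and 5.73% of all tested genes, and none had a log2 fold change past 1 in either direction. These 5 genes, named after their values were seen, were the adaptor Tob1 (0.67), Lsm1 (0.52) and the exosome subunits Exosc2 (0.69) and Exosc4 (0.67) among those that rose, and the adaptor Nanos2, which fell by 0.85 on the log2 scale (limma adjusted P of 0.0353, 0.0160, 0.00153, 0.0164 and 0.00283). In CabZ 2-cell embryos, 9 of 48 rose and 18 fell, against 25.2% and 30.9% of all tested genes. With the libraries set to a common median gene the counts were 12 and 12. Of all 7798 tested genes, 2495 then passed as higher and 1967 as lower, and the storage list had 4 higher and 0 lower. Of 12 tested genes of the exosome and uridylation list, 8 fell and 1 rose, under this setting too. No terminal uridylation enzyme was among these 12. The exosome subunits Exosc5, Exosc1 and Exosc4 fell by 1.80, 1.45 and 2.11 on the log2 scale (limma adjusted P of 6.73e-04, 9.64e-04 and 0.00201). Pabpc1, the main cytoplasmic poly(A)-binding protein, fell by 1.80, Pabpn1 by 1.67 and the poly(A) polymerase Papola by 1.02 (limma adjusted P of 2.17e-04, 0.00231 and 0.00273), 3 of 7 tested genes of poly(A) binding and polyadenylation, of which 0 rose.

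Both decapping genes tested in CabZ 2-cell embryos rose, Lsm1 by 1.63 and the decapping enzyme Dcp2 by 1.16 on the log2 scale (limma adjusted P of 7.54e-04 and 0.00155). The storage list had 3 higher and 2 lower of 11: the germ cell RNA-binding protein Dazl rose by 1.88 and the oocyte cap-binding protein Eif4e1b by 1.24 (limma adjusted P of 9.39e-04 and 0.00239). Further deadenylase genes had 2 higher and 1 lower of 5, and adaptors 1 higher and 4 lower of 11. With a common median gene these counts were 3 and 0 for the deadenylase genes and 1 and 1 for the adaptors. On the values as deposited, 2 of 5 adaptors were higher and 0 lower, where 1373 of all 4018 tested genes passed as higher and 567 as lower. In the libraries labelled Zscan4 OE, 0 of 27 tested list genes passed.

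**Figure D4:**
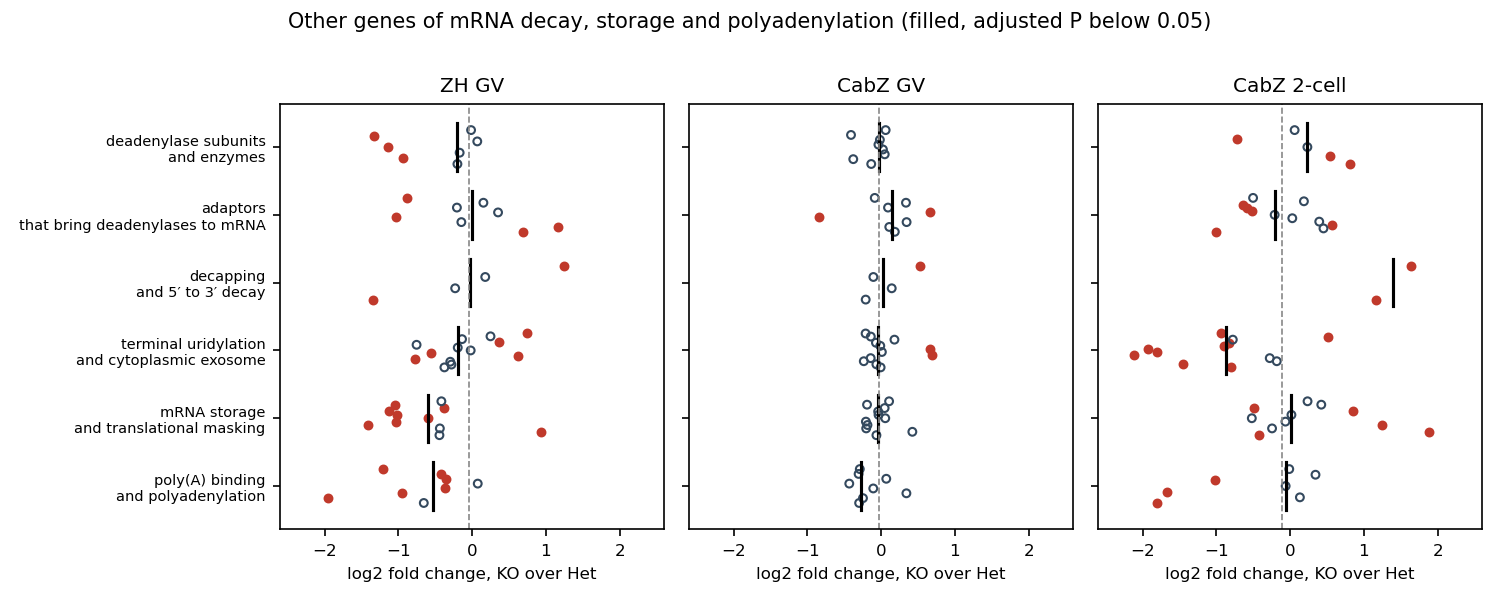
Log2 fold change (KO over Het, x axis) of every tested gene of the 6 pathway lists in ZH GV oocytes, CabZ GV oocytes and CabZ 2-cell embryos; filled points had an adjusted P below 0.05, black bars are list medians and the dashed line is the median of all tested genes. The storage list had a median of -0.59 and the poly(A) list of -0.54 in ZH GV oocytes, against -0.04 and -0.27 in CabZ GV oocytes.

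ATAC-seq, which marks accessible chromatin, was available for CabZ GV oocytes. A peak with its summit within 500 bases of an annotated start was found in 18 of the 60 combinations of the 10 genes and 6 libraries. Btg4 and Cnot8 had such a peak in 4 of the 6 libraries, Zar1 in 3, Cnot7, Pan2 and Ybx2 in 2, Pabpn1l in 1, and Cnot6, Cnot6l and Zfp36l2 in 0. The Btg4 peaks had fold enrichments of 4.33, 4.0 and 3.52 in CabZ Het libraries A, B and C and of 3.75 in CabZ KO library A. The number of genes with a peak followed the size of the peak list: Het libraries with 43399, 67074 and 111327 peaks covered 1, 4 and 7 of the 10 genes, and KO libraries with 46070, 19160 and 29600 peaks covered 4, 1 and 1. The corresponding shares of all 21924 protein-coding genes were 9.29%, 17.3% and 31.2% in Het and 12.9%, 4.43% and 6.24% in KO libraries. The peaks were called on each library separately, so a missing peak does not show that a start site was closed, and Het and KO were not compared by a test. Of the 18 peaks, 2 had a −log10 q of at least 5.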

How the data were processed

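RNA-seq (31 libraries) and ATAC-seq peaks (6 libraries) were analysed. Per the labels and the methods, RNA was amplified with Smart-seq2 v4, which does not mark strand. The authors aligned reads with STAR 2.5.3a to GRCm38 (mm10) and deposited FPKM for the ZH and Zscan4 tables. In the CabZ tables, the deposited values behaved as a score: reads divided 2 times by the gene's span, with each library scaled by the authors to the same total. FPKM was restored by multiplying by the span and rescaling each library, after subtracting the table minimum (0.01, or 0.001 for Zscan4). ATAC-seq reads were aligned with Bowtie2 2.3, and the MACS2 peak lists deposited by the authors held a score, a fold enrichment (ratio over background), −log10 P and −log10 q, and a summit offset. Reads were recovered from the spacing of low values (76.2% to 87.2% were whole within 0.05 read for values up to 20 reads), so no count test was used.

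Genes averaging 1 FPKM or more in a table were tested with limma 3.58.1 (R 4.3.3) on log2(FPKM + 1) within that table, which understates changes of low genes. Passing meant a Benjamini-Hochberg adjusted P below 0.05, and members under the filter got an exact permutation test. The method was tested on simulated data. Alternatives were a pseudocount of 0.1, no filter or a mean of 5 FPKM, other scalings, a trend in the variance, a replicate block, leaving out each library, and a fold change above 2. Genes of the pathway lists were named where they passed with a fold change above 2, at most 3 per list, table and direction. Members and lists were chosen with earlier results of these data known. Annotation was GENCODE M21. Nothing stated that replicates came from separate animals, so P measures the spread between libraries, which may be technical.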

Additional observations from a re-analysis of the deposited data

Results flagged for a closer look

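Each of the 70 sets of 4 libraries (a gene in a group) was checked for a library whose gap to its nearest neighbour took up most of the range. Chance marks about 1 in 20 such sets, and 3 were marked. Pan2 in ZH KO GV replicate 2 was at 1.5 FPKM, with the other KO libraries at 0.785 to 0.843. Zfp36l2 in CabZ Het GV replicate 2 was at 0.875 FPKM, with the other Het libraries at 0.488 to 0.519. Cnot7 in CabZ KO GV replicate 1 was at 35.6 FPKM, with the other KO libraries at 23.2 to 24.9, and without this library Cnot7 passed in CabZ GV oocytes (log2 fold change -0.62, limma adjusted P = 0.00897).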

How the results depend on the processing

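The count of these genes passing ranged from 4 to 7 in ZH GV oocytes and from 1 to 2 in CabZ GV oocytes when each library was left out in turn, stayed at 6 in CabZ 2-cell embryos and at 0 in the Zscan4 experiment, and was 3 on the CabZ 2-cell values as deposited. For all genes, leaving out a library gave 2435 to 3177 calls in ZH GV, 588 to 843 in CabZ GV, 3803 to 4486 in CabZ 2-cell and 18 to 112 in the Zscan4 table, where 77 passed in the full fit. Without GFP replicate A the last count was 18, and without B, C or D 20, 32 and 48, and without Zscan4 OE replicates A or B 49 and 28. In CabZ GV the lowest count, 588 against 883, came without CabZ Het replicate 1. With no filter the counts were 7005 (ZH GV, against 3006), 1399 (CabZ GV) and 6 (Zscan4), and with a mean of at least 5 FPKM they were 1346, 466 and, for CabZ 2-cell, 2148 against 4376, for which fewer genes were tested. As-deposited values gave 415 (CabZ GV) and 1940 (CabZ 2-cell) calls. A fold change above 2 left 1023, 184 and 2914 in ZH GV, CabZ GV and CabZ 2-cell. A pseudocount of 0.1 gave 47 calls in the Zscan4 table. Where the construction of a setting does not show it, the cause was not tested.

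Directions reversed in 5 fits of genes that had not passed: Ybx2 in CabZ GV without KO replicate 2 (-0.026, range over the left-out libraries -0.026 to 0.189), Cnot6 in CabZ 2-cell without Het replicate 3 (-0.013, range -0.013 to 0.143), Pan2 in CabZ 2-cell with a common median gene (0.11), and, in the Zscan4 experiment, Cnot6l without Zscan4 OE replicate B (-0.081, range -0.081 to 0.113) and Zar1 without replicate C (-0.0058, range -0.0058 to 0.325). Zfp36l2 passed in CabZ 2-cell embryos with a common median gene (0.86, limma adjusted P = 0.0432).

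Replicate numbers are shared between Het and KO, but the correlations of same-numbered libraries ran from -0.41 to 0.40 and were not above 0.1 for every pair of any table, so the numbers were not taken to pair the libraries. With the replicate block, 2871 genes passed in ZH GV, 667 in CabZ GV, 4098 in CabZ 2-cell and 2 in the Zscan4 table, and Ybx2 and Zar1 in ZH GV missed the threshold (limma adjusted P = 0.0670 and 0.0520). Not every library correlated best with its own number. Of the 18 ATAC-seq peaks near starts, 2 had a −log10 q of at least 5.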
